A study of Mus musculus with 8 samples.

Results

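The genes of cholesterol and fatty acid synthesis were followed in mouse bone marrow-derived dendritic cells (BMDCs) kept for 4 h or 12 h with an *Echinacea purpurea* extract or with its solvent. The set was a list of 32 symbols, taken by name and by no rule on measured values, though earlier results of these data were known. Of these, 31 had a probe set with a single annotated symbol, out of 18193 such genes on the array. *Acat2* is not analysed here. For each gene the probe set with the highest mean log2 signal over all arrays was used. The genes fall into 16 enzymes of the sterol pathway, 6 regulators and carriers of the same pathway, and 9 genes of fatty acid synthesis.

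The 4 groups were DMSO for 4 h, [BF/S+L/Ep] for 4 h, DMSO for 12 h and [BF/S+L/Ep] for 12 h, with 2 arrays each and 8 arrays in all. [BF/S+L/Ep] is the butanol fraction of a stem and leaf extract of the plant, used at 75 μg/mL in 0.1% DMSO, and the control cells received 0.1% DMSO alone. All cells were grown from the marrow of BALB/c females 6 weeks old, for 9 days with GM-CSF (granulocyte-macrophage colony-stimulating factor), at 200 U/mL by the sample labels and 1000 U/mL by the methods. The non-adherent cells of such a culture, which were taken as immature DCs, are a mixed myeloid population and not a sorted one. No sample before treatment was analysed here, so the levels at 4 h and 12 h can be compared only with each other. Any difference in hybridization or harvest between the times cannot be told apart from time itself.

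Values are the authors' MAS5 signals on the linear scale, with the same trimmed mean of 500 on every array. As background, the signals of 83 probe sets of taste, vomeronasal and olfactory receptor genes were read on each array, and their 95th percentile lay between 66.7 and 107. All 31 probe sets were above it on all 8 arrays. Differences are differences of mean log2 signal, tested with limma over 45037 probe sets with a two-sided test and Benjamini-Hochberg adjustment, and a gene is said to have risen or fallen where the adjusted p was under 0.05. The paper describes the arrays of a group as biological replicates from cell culture and refers to a pair of independent experiments, without saying which arrays belong to which experiment. The p-values rest on the spread between these arrays, moderated toward that of probe sets with like signal. The number of arrays limits the precision.

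Cells make cholesterol from acetyl-CoA through mevalonate, farnesyl diphosphate, squalene and lanosterol. The sterol regulatory element-binding proteins, encoded by *Srebf1* and *Srebf2*, are made as precursors in the membrane of the endoplasmic reticulum, and when sterols are low the escort protein encoded by *Scap* carries them to the Golgi, where proteases release the active factors. They then turn on the genes of sterol synthesis, which *Srebf2* mainly serves, and of fatty acid synthesis, which *Srebf1* mainly serves. *Insig1* encodes a protein that holds the escort back when sterols are plentiful, and is itself a target. In their promoters these factors commonly act beside NF-Y, which binds the letters CCAAT, and Sp1.

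Promoter sequence from RefSeq (GRCm38.p6, 250 bases before to 50 after the start) was found for 24 of the 31 genes. *Sqle*, *Fdps*, *Fdft1*, *Stard4*, *Scd1*, *Scd2* and *Fads1* had none in the table used. The stretches shown are the bases just before the start of 5 genes whose signals fell between 4 h and 12 h and of *Idi1*, whose signal did not pass the test, so that the reader can compare them. They are written 5′ to 3′ on the strand of the gene, with capitals for CCAAT, for its reverse complement ATTGG and, in *Hmgcs1*, for the sterol regulatory element-like letters TCACNCCAC.
Hmgcs1 (chr13:119690201-119690350, plus strand): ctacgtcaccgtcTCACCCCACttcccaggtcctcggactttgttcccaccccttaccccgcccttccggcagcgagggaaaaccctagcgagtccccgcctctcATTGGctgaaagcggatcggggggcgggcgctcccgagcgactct
Lss (chr10:76531505-76531604, plus strand): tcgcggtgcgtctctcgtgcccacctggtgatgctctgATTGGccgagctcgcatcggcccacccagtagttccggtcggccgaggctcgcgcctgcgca
Cyp51 (chr5:4104698-4104797, minus strand): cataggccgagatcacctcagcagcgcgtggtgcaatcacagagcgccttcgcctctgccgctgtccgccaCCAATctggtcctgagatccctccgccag
Mvd (chr8:122443423-122443522, minus strand): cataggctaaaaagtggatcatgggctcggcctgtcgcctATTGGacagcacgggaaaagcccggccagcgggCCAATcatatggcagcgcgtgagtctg
Fasn (chr11:120824548-120824647, minus strand): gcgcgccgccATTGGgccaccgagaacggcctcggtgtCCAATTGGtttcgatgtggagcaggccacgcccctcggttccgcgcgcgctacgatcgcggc
Idi1 (chr13:8885506-8885605, plus strand): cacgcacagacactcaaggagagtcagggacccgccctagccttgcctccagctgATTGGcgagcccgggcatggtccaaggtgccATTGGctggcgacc
In *Hmgcs1* the element-like match ran from -137 to -129, counted back from the start, and a CCAAT box on the other strand lay at -45 to -41. In *Fasn* a CCAAT box and a reverse one overlapped at -62 to -55. Over the whole windows and both strands, 20 of 24 genes (83.3%) held CCAAT, where 41.1% of the 27025 genes of the table did. The Sp1 letters GGGCGG were held by 20 of 24 genes, against 38.2% of all genes. The strict pattern TCACNCCAC was found only in *Hmgcs1*, 1 of 24 genes, against 1.44% of all genes. CCAAT was held by 19 of the 21 genes with a window that fell with time and by 1 of the 3 that did not pass, which was *Idi1*. GGGCGG was held by 18 of the 21 and by 2 of the 3. These are matches of letters in a window, with no test, and binding was not measured.

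Between 4 h and 12 h nearly the whole set fell, in DMSO and in [BF/S+L/Ep] alike. In DMSO, 27 of 31 genes fell and 0 rose, where 0.921% of all probe sets tested were lower and 1.18% higher. In [BF/S+L/Ep], 27 of 31 fell and 0 rose, against 1.31% lower and 1.55% higher over all probe sets. Averaged over both treatments, 28 of 31 fell and 0 rose, against 3.18% lower and 3.65% higher over all probe sets, and every 12 h array lay below every 4 h array for 28 of 31 genes, against 5.57% of all probe sets. The median log2 difference over the set was -1.23, where the median of all probe sets was 0.03, and 20 genes lost at least 1 log2 unit, against 6.72% of all probe sets. Centring each array on its median turned the split over all probe sets from 1434 lower and 1645 higher to 1247 lower and 948 higher, and left 28 genes of the set lower and 0 higher. The calls rest on letting the spread follow the signal: with a spread that does not, 0 genes passed in DMSO, 0 in [BF/S+L/Ep] and 12 on average.

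**Figure D1:**
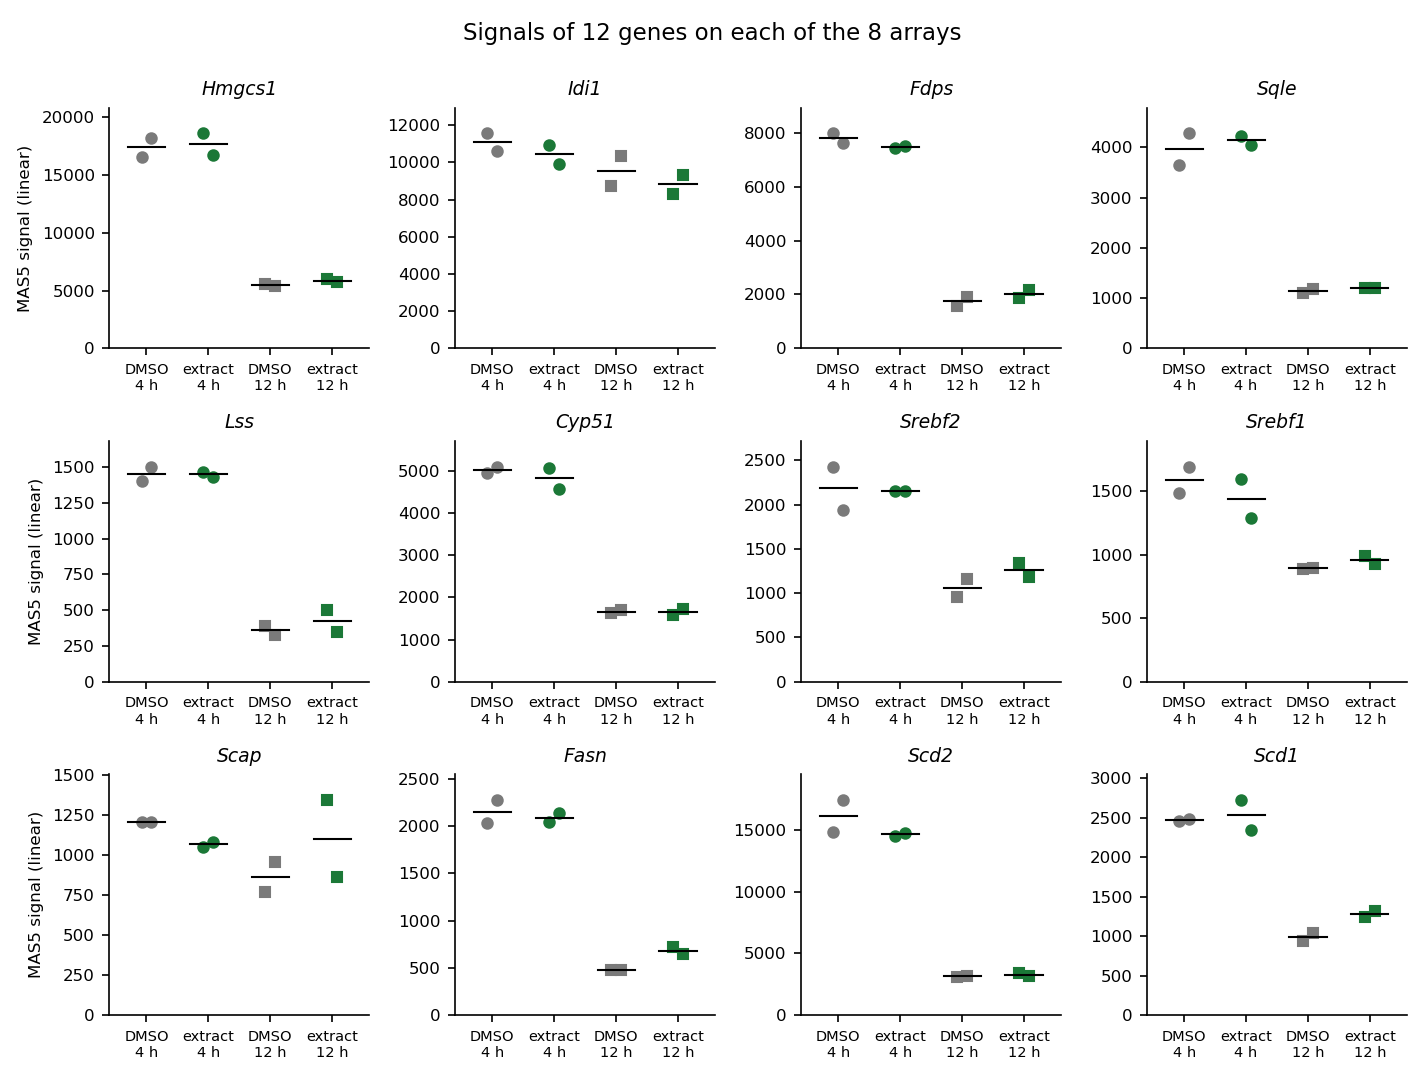
MAS5 signals (linear, each axis starting at 0) of 12 genes on each array, with grey for DMSO, green for [BF/S+L/Ep] ("extract"), circles for 4 h and squares for 12 h; points are the 2 arrays of a group and bars their mean. For 10 of the genes all 4 arrays at 12 h lay below all 4 at 4 h. The arrays of Scap overlapped between the times, and those of Idi1 did so only across treatments.

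The sterol enzymes of the set fell along the pathway, 15 of 16 on average. Their median log2 difference was -1.45 averaged over treatments (-1.54 in DMSO, -1.34 in [BF/S+L/Ep]). In what follows, the signals of a gene are given in pairs, replicate 1 before replicate 2, for 4 h in DMSO, 4 h in [BF/S+L/Ep], 12 h in DMSO and 12 h in [BF/S+L/Ep], and log2 differences of 12 h against 4 h are averages over both treatments unless a treatment is named. *Hmgcs1*, whose enzyme makes HMG-CoA at the head of the mevalonate pathway, read 16545 and 18193, 18566 and 16662, 5520 and 5395, and 5977 and 5743. The 12 h arrays were close together and all far below the 4 h arrays, with a log2 difference of -1.63 (SE 0.07, adjusted p = 3.89e-08), or 32.4% of the 4 h level. The other 4 probe sets of *Hmgcs1* gave -1.63 to -1.77. The kinases *Mvk* (-1.23) and *Pmvk* (-0.58) and the decarboxylase *Mvd* (-0.91), which turn mevalonate into isopentenyl diphosphate, fell too. *Mvd* read 1626 and 1544, 1644 and 1859, 707 and 808, and 874 and 1243, with no overlap between the times. A second probe set of *Mvk*, also above background on all arrays, differed by only -0.45 (adjusted p = 0.173), so the size of the fall of *Mvk* depends on the probe set.

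At the isoprenoid step, neighbouring enzymes differed. *Idi1*, the isomerase of isopentenyl diphosphate, read 11563 and 10635, 10962 and 9936, 8736 and 10324, and 8324 and 9333. Its arrays overlapped between the times only across treatments. Within each treatment, both 12 h arrays lay below both 4 h arrays. Its log2 difference was -0.23 (95% interval -0.41 to -0.06, adjusted p = 0.124), and its second probe set gave -0.25. *Fdps*, the synthase that uses the product of *Idi1* to make farnesyl diphosphate, read 7970 and 7598, 7447 and 7502, 1582 and 1907, and 1852 and 2161. *Fdps* fell to 24.4% of its 4 h level (-2.03, SE 0.08, adjusted p = 2.43e-08), the largest fall among the 16 sterol enzymes. The intervals of *Idi1* and *Fdps* are far apart, but the difference between genes was not tested.

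The 3 enzymes from farnesyl diphosphate to lanosterol fell to between 26.6% and 31.8% of their 4 h levels. *Fdft1*, the squalene synthase, read 5065 and 4830, 5594 and 5262, 1344 and 1652, and 1837 and 1806. *Sqle*, the squalene epoxidase, read 3658 and 4277, 4235 and 4054, 1097 and 1174, and 1204 and 1206. *Lss*, the lanosterol synthase, read 1401 and 1502, 1468 and 1429, 390 and 326, and 500 and 346. In each of them all 12 h arrays lay below all 4 h arrays, and the log2 differences were -1.65 for *Fdft1* (adjusted p = 8.61e-08), -1.79 for *Sqle* (3.89e-08) and -1.91 for *Lss* (9.62e-07). A second probe set, above background on all arrays, gave -1.43 for *Fdft1* and -1.53 for *Lss*. That of *Lss* was close to background at 12 h, at 99 to 136. Second probe sets matter because the brightest ones of *Hmgcs1*, *Fdft1* and *Hsd17b7* (suffix _x_at) and of *Lss* and *Acsl3* (suffix _s_at) are of the kinds whose probes may match other transcripts.

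All 7 enzymes of the set from lanosterol to cholesterol fell, but by unequal amounts, to between 25.4% and 72.0% of their 4 h levels. *Cyp51*, the lanosterol demethylase, read 4953 and 5102, 5077 and 4577, 1624 and 1690, and 1594 and 1728 (-1.57, adjusted p = 6.43e-08). *Msmo1*, which removes further methyl groups, read 5719 and 5460, 5401 and 6640, 1746 and 1872, and 2208 and 2380 (-1.51, adjusted p = 1.93e-07). *Nsdhl*, a dehydrogenase of the same demethylation steps, read 3725 and 3617, 3670 and 4014, 1533 and 1548, and 1609 and 1694 (-1.23, adjusted p = 3.71e-07). In these 3 genes all 12 h arrays lay below all 4 h arrays, with a wide gap between the times. *Sc5d*, a sterol desaturase, read 3132 and 3020, 2738 and 3418, 1064 and 1186, and 1231 and 1486 (-1.32, adjusted p = 2.38e-06), although 1 of its other 2 probe sets gave -0.29 (adjusted p = 0.652). *Dhcr7*, the reductase that completes cholesterol, fell by 1.98 on the log2 scale, with signals of 1146 to 1575 at 4 h and 291 to 464 at 12 h. *Hsd17b7* fell by 1.38. *Ebp*, the sterol isomerase, had the smallest difference of the 7, and its fall of 0.47 passed on average (adjusted p = 0.00408) but not within DMSO (0.0593) or within [BF/S+L/Ep] (0.0693).

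**Figure D2:**
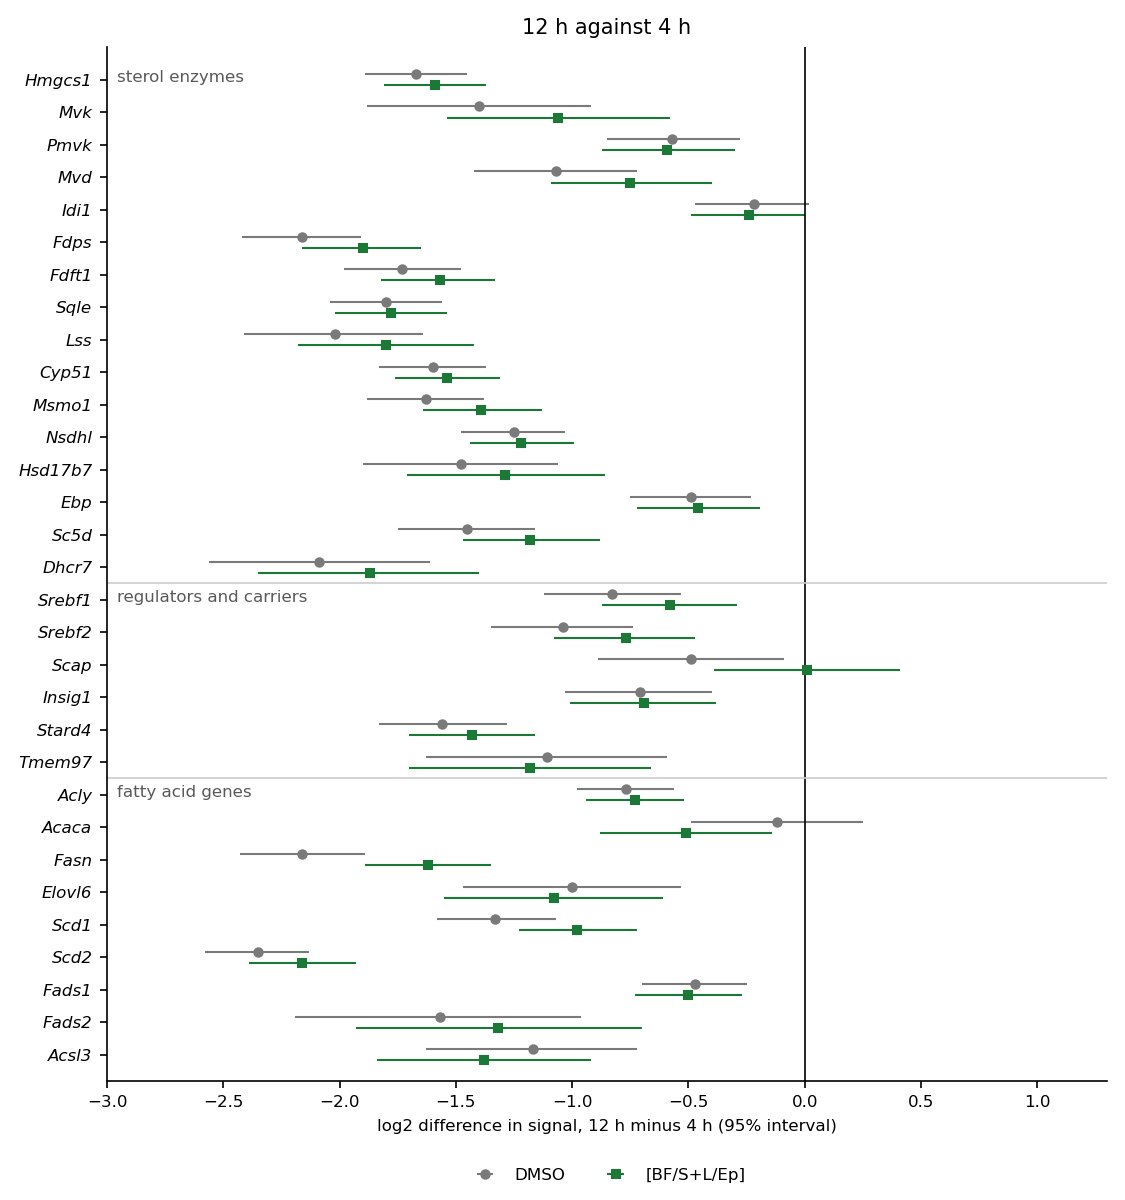
Log2 difference in MAS5 signal at 12 h against 4 h for each of the 31 genes (horizontal axis), in DMSO (grey circles) and in [BF/S+L/Ep] (green squares), with 95% intervals from limma; the sterol enzymes are in pathway order. Nearly all points lie left of 0, down to -2.35 for Scd2 in DMSO, and the points nearest 0 are those of Idi1 in both treatments, Acaca in DMSO and Scap in [BF/S+L/Ep].

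The regulators and carriers fell in 5 of 6 cases, with a median of -0.81. *Srebf2* read 2429 and 1944, 2149 and 2152, 956 and 1163, and 1341 and 1182. It fell to 53.3% of its 4 h level (-0.91, SE 0.10, adjusted p = 9.46e-05). Its second probe set, also above background on all arrays, read 1013 and 1126, 1105 and 1011, 809 and 568, and 718 and 961. That fall was smaller, so the size of the fall of *Srebf2* depends on the probe set. *Srebf1* read 1486 and 1695, 1597 and 1291, 892 and 899, and 992 and 930, and fell to 61.4% (-0.70, SE 0.10, adjusted p = 5.68e-04). *Insig1* read 2853 and 3394, 2657 and 3367, 2137 and 1683, and 1831 and 1867, and also fell to 61.4% (-0.70, SE 0.10, adjusted p = 9.39e-04). In these 3 genes every 12 h array was below every 4 h array. *Scap*, the escort, read 1206 and 1206, 1051 and 1084, 767 and 957, and 1344 and 862. One [BF/S+L/Ep] array at 12 h was the highest of all 8 for *Scap*, and the difference was -0.49 in DMSO (adjusted p = 0.264) and 0.01 in [BF/S+L/Ep] (adjusted p = 0.989). Of the carriers, *Stard4*, which moves cholesterol between membranes, read 3014 and 3440, 3401 and 3038, 1117 and 1075, and 1306 and 1088 (-1.49, adjusted p = 3.93e-07). All 3 probe sets of *Stard4* gave -1.41 to -1.49. *Tmem97*, a membrane protein of the endoplasmic reticulum, fell by 1.15.

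The fatty acid genes fell in 8 of 9 cases, with a median of -1.15, and included the largest fall of the set. *Scd2*, a stearoyl-CoA desaturase that makes monounsaturated fatty acids, read 14801 and 17418, 14513 and 14768, 3120 and 3158, and 3400 and 3158. It was left with 20.9% of its 4 h level (-2.26, SE 0.07, adjusted p = 5.03e-09), and its other 2 probe sets gave -2.01 and -1.91. *Scd1*, its close relative, read 2464 and 2488, 2727 and 2352, 937 and 1036, and 1249 and 1323, and fell to 44.9% (-1.15, SE 0.08, adjusted p = 2.19e-06). Whether the probes of the 2 relatives take up each other's RNA was not tested. *Fasn*, the synthase that builds palmitate, read 2031 and 2276, 2044 and 2134, 481 and 481, and 721 and 642, and fell to 27.0% (-1.89, SE 0.09, adjusted p = 6.43e-08). The carboxylase gene *Acaca*, which supplies its malonyl-CoA, read 669 and 760, 871 and 811, 608 and 707, and 684 and 509. Its arrays overlapped between the times in DMSO but not within [BF/S+L/Ep], and its difference of -0.32 did not pass (95% interval -0.58 to -0.06, adjusted p = 0.167). *Acly*, which makes acetyl-CoA from citrate, fell by 0.75 (adjusted p = 1.98e-05). The elongase gene *Elovl6* (-1.04), the polyunsaturated fatty acid desaturases *Fads1* (-0.49) and *Fads2* (-1.44), and *Acsl3* (-1.28), which activates fatty acids, fell as well.

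**Figure D3:**
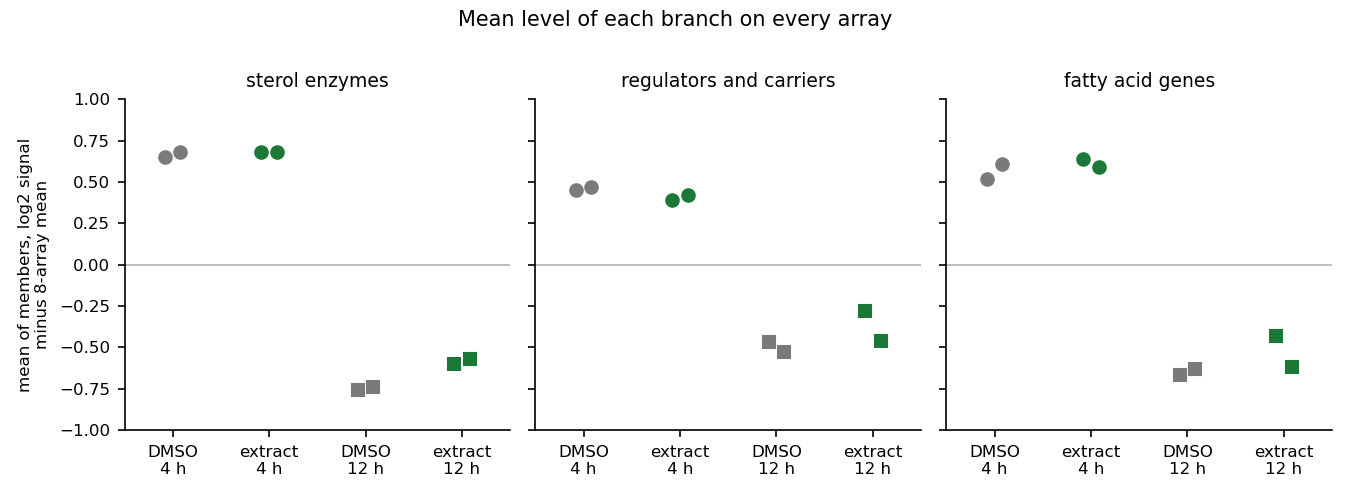
Mean over the genes of each branch of the log2 signal minus that gene's mean over the 8 arrays (vertical axis), with 1 point per array, grey for DMSO, green for [BF/S+L/Ep] ("extract"), circles for 4 h and squares for 12 h. The sterol enzymes lie at 0.65 to 0.68 on the 4 arrays of 4 h, and at 12 h they lie at -0.76 and -0.74 for DMSO and -0.60 and -0.57 for [BF/S+L/Ep].

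The comparisons of 12 h with 4 h within each treatment share no arrays, but the spread of a gene was estimated once from all arrays. The calls in the 2 treatments are therefore not independent. Across the 31 genes, the log2 differences in the 2 treatments had a Pearson's r of 0.95 and a Spearman's rho of 0.96, and across the 23336 probe sets above background on at least 4 arrays the values were 0.53 and 0.55. These are correlations across genes, which are not independent replicates, and each gene was read by the same probe set in both. Both courses held the same 27 genes, where 0.695% of all probe sets were lower in both. The log2 difference of 12 h against 4 h was higher, and so the fall smaller, in [BF/S+L/Ep] than in DMSO for 24 of 31 genes, as it was higher for 11488 of the 23336 probe sets above background on at least 4 arrays. None of these differences passed in limma (0 of 31, against 0% of all probe sets), and 1 of 31 had an unadjusted p under 0.05, as had 1647 of the 45037 probe sets. That gene was *Fasn*, where the difference between the falls was 0.54 log2 units (95% interval 0.16 to 0.93) with an unadjusted p of 0.00955 from limma.

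[BF/S+L/Ep] itself changed no gene of the set in limma. At 4 h, 0 of 31 genes passed, against 0.00444% of all probe sets, and 0 had an unadjusted p under 0.05, against 2238 of the 45037 probe sets. At 12 h, 0 of 31 passed, against 0.02% of all probe sets, with 5 at an unadjusted p under 0.05, against 2684 of the 45037 probe sets. Averaged over the times, 0 of 31 passed, against 0.107%, again with 5 at an unadjusted p under 0.05, against 3189 of the 45037 probe sets. The same count of 0 was found under each alternative tried, at each time and on average. The log2 differences lay between -0.18 and 0.24 at 4 h, with a median of 0.01 and 17 of 31 above 0. At 12 h they lay between -0.19 and 0.50, with a median of 0.10 and 26 of 31 above 0, where the median of all probe sets was -0.03. Both [BF/S+L/Ep] arrays were above both DMSO arrays at 12 h for 11 of 31 genes, against 15.1% of all probe sets, and below for 0, against 19.7%. At 4 h they were above for 5, against 15.1%, and below for 3, against 17.6%. The set as a whole is described and not tested here, since its genes are not replicates.

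The intervals of the difference, each for 1 gene and not adjusted, show how large a difference these arrays allow. They rest on letting the spread follow the signal, as the calls with time do. An interval averaged over the times does not bound the difference at 1 time. Averaged over the times, the 95% interval lay within a 1.5-fold change in either direction for 30 of 31 genes, and within 2-fold for all 31. At 4 h the interval lay within 1.5-fold for 27 genes and at 12 h for 21. The genes with the smallest p at 12 h were *Fasn*, *Scd1*, *Msmo1* and *Mvd*. *Fasn* was higher in [BF/S+L/Ep] by 0.50 log2 units (SE 0.13, 95% interval 0.23 to 0.77), from 481 on both DMSO arrays to 721 and 642, with an unadjusted p of 0.00163 and an adjusted p of 0.437. *Scd1* differed by 0.38 (adjusted p = 0.614), *Msmo1* by 0.34 (0.697) and *Mvd* by 0.46 (0.713). At the probe sets used, both [BF/S+L/Ep] arrays at 12 h were above both DMSO arrays in all 4 of these genes. In none of them did the difference survive adjustment. Second probe sets of *Scd1*, *Mvd* and *Msmo1* did not show this separation at 12 h. That of *Scd1* read 291 and 244 in DMSO and 275 and 235 in [BF/S+L/Ep]. That of *Mvd* read 645 and 814 against 683 and 855, and the dimmer one of *Msmo1* 112 and 32 against 124 and 58. *Fasn* had 1 probe set. In *Fdft1*, whose 12 h interval also lay above 0, a second probe set above background on all arrays did separate. It read 1096 and 1079 in DMSO and 1292 and 1720 in [BF/S+L/Ep]. The smallest p at 4 h belonged to *Acaca* (0.24, adjusted p = 0.997), *Scd2* (-0.13, 0.997), *Fdft1* (0.13) and *Srebf1* (-0.14). *Scd2* was the gene with the largest fall in time and read 3120 and 3158 in DMSO and 3400 and 3158 in [BF/S+L/Ep] at 12 h, so its groups there touched.

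**Figure D4:**
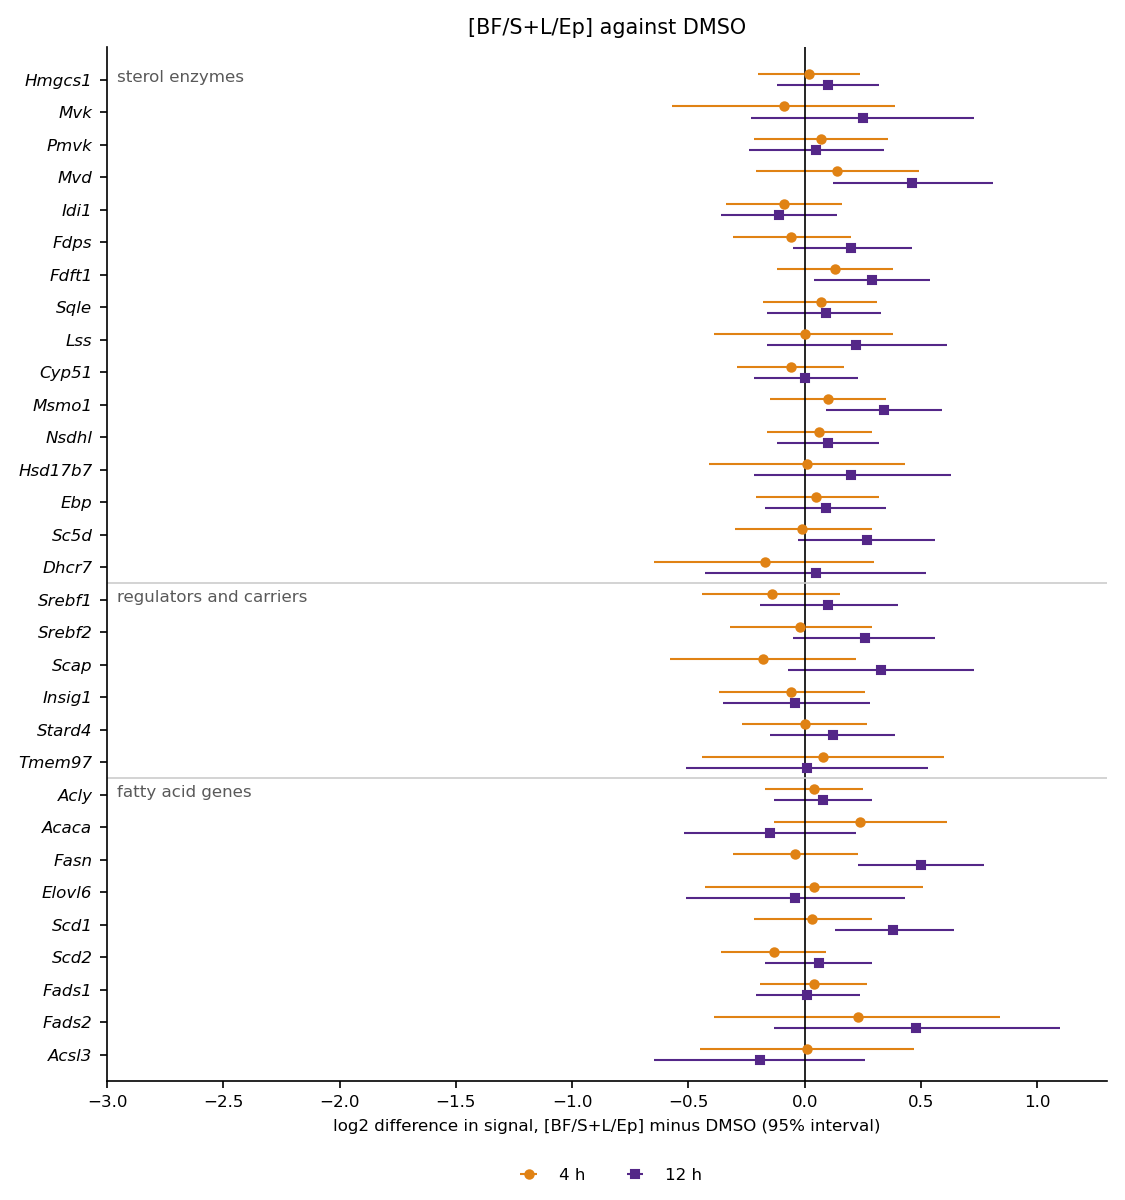
Log2 difference in MAS5 signal of [BF/S+L/Ep] against DMSO for each of the 31 genes (horizontal axis, on the same scale as the plot of 12 h against 4 h), at 4 h (orange circles) and 12 h (purple squares), with 95% intervals from limma. At 4 h all intervals include 0, and at 12 h those of Fasn, Scd1, Msmo1, Mvd and Fdft1 lie above 0 without passing adjustment.

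Other genes of the same pathways, listed from general knowledge, were read as well. Of 25 measured, 8 fell and 1 rose between 4 h and 12 h on average, against 3.18% lower and 3.65% higher over all probe sets. For the extract averaged over the times 0 passed in limma, against 0.107% of all probe sets. An unadjusted p under 0.05 was found for 2 of the 25, against 3189 of the 45037 probe sets. The largest fall among them was that of *Aacs*, which makes acetoacetyl-CoA for sterol synthesis and read 1212 and 1178, 1256 and 1348, 275 and 257, and 354 and 333 (-2.04, adjusted p = 1.08e-07). *Acss2* (-0.64), which makes acetyl-CoA from acetate, *Lpin1* (-0.55), a phosphatase of lipid synthesis, *Elovl5* (-0.55) and *Elovl1* (-0.47), which elongate fatty acids, also fell. The same held for *Hacd3* (-0.45) and *Hsd17b12* (-0.35), of the elongation cycle, and for *Lbr* (-0.41), a sterol reductase of the nuclear envelope. Of the 4 genes of sterol synthesis outside the set 2 fell, while *Tm7sf2* (0.03, adjusted p = 0.951 in limma) and *Ggps1* (-0.22) did not pass. Of the 7 genes of sterol regulation and uptake outside the set, 0 fell. *Mylip*, a ubiquitin ligase that acts on lipoprotein receptors, rose by 0.53 (adjusted p = 0.00267), from 2071 to 2519 over the 4 h arrays to 2938 to 3752 over the 12 h arrays. *Insig2* differed by 0.07, and the protease genes *Mbtps1* and *Mbtps2* by 0.01 and 0.16, none of which passed.

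Markers of cell types were read on the same arrays. All 10 DC markers measured were above background on at least 4 arrays, with a summed signal of 193109 to 207986 over the 4 h arrays and 173852 to 186891 over the 12 h arrays. Between the times *Zbtb46* rose by 0.74 and *Itgax* and *Dcstamp* fell by 0.36 and 0.85. All 7 macrophage markers measured were above background too, and 4 of 7 rose between 4 h and 12 h, *Adgre1* by 1.21, *C1qb* by 0.57, *Mertk* by 0.53 and *C1qa* by 0.45. The other 3 did not pass: *Csf1r* differed by 0.01, *Cd68* by 0.05 and *Fcgr1* by -0.29 (adjusted p = 0.0547), and every 12 h array of *Fcgr1* was below every 4 h array. The summed macrophage signal went from 53985 to 59759 over the 4 h arrays to 60676 to 64613 over the 12 h arrays. Of the neutrophil markers 3 of 7 were above background on at least 4 arrays and 0 passed with time, and none of the 5 B cell or 4 T and NK cell markers was above background on that many. For the extract 0 of 49 markers passed in limma at 4 h, at 12 h or on average, with 2, 3 and 8 at an unadjusted p under 0.05. Over all 45037 probe sets the numbers at an unadjusted p under 0.05 were 2238, 2684 and 3189. The part of the macrophage and DC markers in the fall of the sterol and fatty acid genes was not tested. In RNA from whole cultures, fewer cells of a type and less RNA per cell cannot be told apart.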

How the data were processed

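RNA of 4 groups of BMDCs was hybridized to 8 Affymetrix Mouse Genome 430 2.0 arrays, 2 per group, from 7 μg of RNA by the methods and 10 μg by the labels. The deposited intensity values are MAS5 signals made by the authors, 1 per probe set and array (MAS5 version: not given in the sources used here). Of 45101 probe sets, 64 controls were left out. Symbols came from the platform annotation, through Entrez ID where symbols had changed: 34945 probe sets have 1 symbol, 932 several and 9160 none.

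Log2 signals of all arrays were fitted in limma 3.58.1 (R 4.3.3) with 1 mean per group and moderation following intensity (4 residual and 8.833 prior degrees of freedom). The contrasts were [BF/S+L/Ep] against DMSO at each time, averaged and compared between times, and 12 h against 4 h in each treatment and averaged. All tests were two-sided, adjusted over 45037 probe sets, with 95% intervals. The fit was tested on simulated data whose spread followed intensity, which cannot show whether a spread that follows intensity is right for these arrays. Tables and figures were made with Python 3.11.15 and matplotlib 3.10.9.

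Genes named with values on every array were the 12 with the smallest p in each time contrast, the 4 with the smallest p in each treatment contrast, and Srebf1, Srebf2, Insig1, Scap, Scd1 and Scd2. Idi1 was added after its values were seen. The genes, lists and motifs were chosen with earlier results of these data known. Alternatives were quantile normalization, centring on the array median, an offset of 50, no intensity trend, robust moderation, filters on dim probe sets (above background on 4 or on 2 arrays), the replicate number as a block, each array left out, all probe sets of a gene averaged, the 4 arrays of 1 time alone, and, added after seeing the data, the filter on 4 arrays together with no trend.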

Additional observations from a re-analysis of the deposited data

How the results depend on the processing

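The count of genes changed by [BF/S+L/Ep] stayed at 0 under every alternative tried. The count lower at 12 h stayed at 28 of 31 on average without each array in turn, and ranged from 18 to 27 in DMSO and from 19 to 26 in [BF/S+L/Ep]. Without the intensity trend it was 0 in DMSO, 0 in [BF/S+L/Ep] and 12 on average; with only probe sets above background on at least 4 arrays and no trend, an alternative chosen after seeing the data, it was 16, 18 and 28. Apart from no trend over all probe sets, 16 of the 27 genes in DMSO, 17 of 27 in [BF/S+L/Ep] and 28 of 28 on average passed under every alternative. Those lost in at least 1 alternative were Mvd, Mvk, Pmvk, Insig1, Srebf1, Srebf2, Tmem97, Elovl6, Fads1 and Fads2 in both treatments, and Acsl3 in DMSO. No direction reversed among these calls.

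Deviations of same-numbered arrays had correlations of -0.03 to 0.11 between groups, which cannot show whether the arrays were paired. With the replicate block, 28 genes were lower in DMSO, 27 in [BF/S+L/Ep] and 28 on average. The median log2 difference of the fatty acid genes was -1.04 in DMSO and -0.95 in [BF/S+L/Ep] with an offset of 50, and without each array in turn ran from -1.31 to -0.98 in DMSO and from -1.21 to -0.87 in [BF/S+L/Ep]. The median of the sterol enzymes was -1.32 in DMSO and -1.27 on average with all probe sets of a gene averaged. These medians moved by more than the replicate SD (0.13 for sterol enzymes, 0.10 for fatty acid genes, log2); the cause was not tested. The median SE of the difference between the times in DMSO was 0.59 over all probe sets, 0.21 over those above background on at least 4 arrays and 0.13 over the 31 genes.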
